A study of Mus musculus with 12 samples.

Results

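Cardiac stem cell cultures are cells taken from the heart and expanded in a dish, a population defined in part by the surface receptor KIT. The study asked how such cultures from mice that carry Cre recombinase in the Kit locus (c-kitCre) differ from wild-type cultures. The results here concern the 3 cultures labelled c-kitCre, called B1, B2 and B3 after the authors' columns, out of 6 cultures in the series, and describe their own profile and the spread among them. They were chosen by their columns in the authors' differentiation table, not by any measured value. The labels give C57BL/6 mice and describe growth on gelatin-coated dishes in a cardiac stem cell medium with 10% serum at 37 °C, 21% O2 and 5% CO2. Each culture has 2 libraries in the labels (6 of the 12 of the series), but the table holds 1 value per culture and gene, so n = 3 throughout. Whether the cultures came from separate animals is not stated in the labels, and the spread between them may be technical. With 1 group and no replicate of any single culture, no test was possible, and every statement below is a description of these 3 cultures.

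As background, KIT is the receptor tyrosine kinase for stem cell factor and is used, with the absence of blood and mast cell markers, to isolate resident cardiac progenitors. Such isolates usually grow as mesenchymal cells, which build collagens, fibronectin and basement membrane and read their surroundings through integrins and through receptors for platelet-derived growth factor, TGF-beta and Wnt ligands. Cultured cells also keep a circadian clock, a loop in which the CLOCK and ARNTL proteins switch on Per, Cry and Nr1d genes whose products then switch the loop off, and an interferon response that places genes such as the Ifit family under the control of the IRF family and other factors.

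Kit (ENSMUSG00000005672, chromosome 5, 75574916 to 75656722, build mm10) was examined first because it is the targeted gene. It stood at 1732, 1738 and 1603 scaled reads in B1, B2 and B3, a scaled read being the raw value times the factor that the authors' normalized values apply to that culture. The 3 cultures labelled wild-type, read for this check alone, had 3.38, 1.55 and 1.17 scaled reads, and a Cre insertion at this locus gives no ground for a higher level in its carriers. Kit thus goes against the labels, and the group is called the cultures labelled c-kitCre throughout. In Kit, B1, B2 and B3 lay close together, and the per-length level was 13.6 ± 1.45 TPM (reads per length, as a share of their sum over genes scaled to 1000000; SD, n = 3), rank 5653 of 20466 protein-coding genes. Summed raw values were 35963488, 22371439 and 26546087 in B1, B2 and B3, with scale factors of 0.866, 1.52 and 1.06, so that 10 scaled reads stand for 11.5, 6.59 and 9.46 raw reads. Protein-coding genes held 85.9%, 85.1% and 86.6% of the raw values. B2 had the lowest sum and the largest factor, and their part in the departures described for it was not tested.

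Levels of different genes are compared per length in TPM, and levels of a gene between cultures in scaled reads. A gene is called on where it had at least 1 TPM in all 3 cultures, and off where it stayed under 0.1 TPM in all 3. Of 20466 protein-coding genes, 11081 (54.1%) were on, 4062 (19.8%) were off and 5323 lay between. A gene is called apart in a culture, or higher or lower in it, where that culture was at least 2-fold above, or below, both others while these lay within 2-fold of each other, on scaled reads + 1. Of 17749 genes averaging 10 or more scaled reads, 682 (3.84%) were higher in B2 and 1304 (7.35%) were lower in B2. The average includes the culture called, so a weak gene can pass through the 1 culture where it is high. In the single cultures 11736, 11393 and 12145 coding genes reached 1 TPM.

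The coding genes at the highest per-length levels were a predicted gene, components of the translation machinery, and genes of the cytoskeleton and glycolysis. Gm20594, a predicted gene by its name, came first with 70727, 79137 and 73488 TPM in B1, B2 and B3. It is annotated over a short span (chromosome 6, 79817916 to 79818364), and by scaled reads it lay below Eef1a1 in each culture. What its reads come from was not tested. Next were the elongation factor gene Eef1a1 (15092 ± 788 TPM, SD, n = 3) and the ribosomal stalk gene Rplp1 (6666 ± 412). Spp1, which encodes the secreted matrix phosphoprotein osteopontin, followed with 6704, 3246 and 6583 TPM, at its lowest in B2. Lgals1, the galectin-1 gene, had 4909 ± 582 TPM, the actin gene Actb 4101 ± 872 and the intermediate filament gene Vim 2427 ± 312. Pkm and Aldoa, of glycolysis, and Bsg, the chaperone of lactate transporters, were among the first 20 with 2410.5, 2403 and 2349 TPM. The ferritin light chain gene Ftl1 (1954, 3805 and 1914) was the 1 gene of the first 20 that stood apart in B2, where it was higher. The ribosomal genes Rplp0, Rps15, Rpl4, Rps3a, Rpl41 and Rps2, the elongation factor gene Eef2 and the predicted genes Gm9846 and Gm11808 complete the first 20. Ribosomal protein genes, Eef1a1, Actb, Ftl1 and Gapdh have near-identical copies in the genome, so their values are uncertain. Whether the predicted genes have such copies was not tested, and their values are uncertain too. Among RNAs that encode no protein, a signal recognition particle RNA, the small nuclear RNA 7SK, the RNase P RNA and the nuclear RNA Malat1 stood highest by scaled reads, in this order, and Malat1 had 2180.0 ± 225 TPM.

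The lineage lists held 241 genes, of which 75 were on, 59 off and 106 between, against 54.1% on and 19.8% off of all coding genes. Of 135 averaging 10 or more scaled reads, 10 (7.41%) were higher and 9 (6.67%) lower in B2. Over all genes these shares were 3.84% and 7.35%. Mesenchymal surface genes were the most complete list, with 14 of 19 on. Beside Vim, these included Itgb1, the beta 1 integrin chain, at 727 ± 38.2 TPM, S100a4, a calcium-binding protein of motile fibroblasts, at 689.7 ± 94.9, Cd44, the hyaluronan receptor, at 168 ± 14.6, and Thy1, a fibroblast surface glycoprotein, at 78.3 ± 12.8 (SD, n = 3). Pdgfra had 58.0 ± 11.0 TPM, and Ly6a, which encodes the Sca-1 antigen of cardiac progenitors, had 43.3 ± 5.40. Cd34, a surface antigen of many adventitial and blood progenitors, lay between with 0.379 ± 0.102 TPM, and Dpp4, found on a fibroblast progenitor state, was off at 0.0404 ± 0.0190. No member of this list stood apart in any culture.

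Of 20 cardiac transcription factor genes 11 were on and 4 off (55% and 20%, near the 54.1% and 19.8% of all coding genes). Gata4, a zinc finger factor of heart development, had 39.7 ± 3.67 TPM, Tbx3, a factor of the conduction system, 31.6 ± 2.58, Tbx18, a factor of the epicardium and sinus node, 15.7 ± 2.44, Gata6 15.7 ± 1.01, Hand2 10.5 ± 2.47 and Isl1, which marks second heart field progenitors, 7.21 ± 1.67 (SD, n = 3). Nkx2-5, the core factor of cardiomyocyte commitment, lay between at 0.107 ± 0.0554 TPM, and Gata5, Hand1, Irx4 and Myocd, the cofactor of muscle gene activation, were off. Hopx, a cofactor in cardiac progenitors, was the 1 member apart in B2, with 7.74, 36.3 and 10.2 scaled reads.

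Of 22 genes of the cardiomyocyte apparatus 3 were on, 7 off and 12 between (13.6% on and 31.8% off, against 54.1% and 19.8% of all coding genes). The calcium pump gene Atp2a2, used in many cell types, had 68.5 ± 17.1 TPM, the troponin gene Tnnc1 7.27 ± 1.15 and the pump regulator Pln 2.88 ± 1.64 (SD, n = 3). The myosin heavy chain genes Myh6 and Myh7 were off at 0.0460 and 0.0234 TPM, as were Mybpc3, Myl3, Myl7, Csrp3 and the calcium release channel gene Ryr2. Tnnt2 lay between at 1.13 ± 0.145, with the cardiac actin gene Actc1 at 0.149 ± 0.0121. Of 11 members averaging 10 or more scaled reads, 1 was higher in B2 (9.09%, against 3.84% of all genes) and 2 lower (18.2%, against 7.35%). In B3 2 of the 11 were lower as well, against 0.355% of all genes. In B2 Pln was higher (66.9, 213 and 71.4 scaled reads), while Casq2, the calcium store protein gene, was lower (57.3, 0.273 and 43.6), and so was Ttn, the giant sarcomere spring (684, 336 and 685).

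Smooth muscle genes were partly on, 8 of 15 with 0 off (53.3% on, near the 54.1% of all coding genes). Smtn, Tpm2 and Cald1, which act on actin filaments, had 122, 84.4 and 77.4 TPM. Acta2, the smooth muscle actin gene, had 2703, 1026 and 2402 scaled reads and Tagln 1009, 472 and 963, both lower in B2 than in B1 and B3. Lmod1, an actin nucleator of smooth muscle, was lower in B2 as well (46.8, 12.3 and 54.2), while Des, the muscle intermediate filament gene (42.9, 145 and 63.9), and the integrin chain gene Itga8 (152, 336 and 151) were higher. Myh11, the heavy chain of differentiated smooth muscle, lay between at 0.209 ± 0.0654 TPM (SD, n = 3). Of 13 pericyte genes, 7 were on (53.8%, again near the share of all coding genes). Ndufa4l2, a mitochondrial protein of hypoxic cells, had 39.5 ± 9.14 TPM, the receptor gene Pdgfrb 34.7 ± 6.48, Notch3 19.4 ± 2.29 and Steap4 16.6 ± 2.79, while Kcnj8, a channel of brain and heart pericytes, was off and Cspg4, the NG2 proteoglycan gene, lay between (17.6, 3.03 and 24.4 scaled reads, lowest in B2).

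Endothelial genes were on in 4 of 18 cases, with 6 off (22.2% and 33.3%, against 54.1% and 19.8% of all coding genes). Flt1, a VEGF receptor also released as a soluble decoy, had 15.7 ± 1.99 TPM, whereas Kdr, Tek, Tie1, Emcn, Robo4 and Tal1 were off and the junction genes Pecam1 and Cdh5 lay between at 0.498 ± 0.0798 and 0.221 ± 0.0475 TPM (SD, n = 3). In B2 Plvap, of endothelial diaphragms, was higher (77.3, 246 and 63.8 scaled reads), and Esam (49.4, 6.50 and 30.4) and Icam2 (19.8, 0 and 16.8) were lower. Of 15 epicardial and mesothelial genes 0 were on: Wt1, an epicardial factor, had 0.876 ± 0.121 TPM, Msln 0.970 ± 0.372 and Krt19 1.23 ± 0.274, and Tcf21, Aldh1a2 and Gpm6a were off. The epithelial list also had 0 of 12 on, with Epcam, Esrp1, Krt5, Dsp and Cldn3 off and Cdh1 between at 0.114 ± 0.0300.

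Blood cell markers were low. The pan-leukocyte gene Ptprc was off at 0.00643 TPM, and Emr1, Lyz2 and C1qa were off as well. Cd68, a lysosomal protein of macrophages that fibroblasts also make, was on at 13.3 ± 2.96 TPM, and 3 other genes of this list of 17 were on (Cd14, Mrc1 and the receptor Csf1r at 1.73 ± 0.0964; SD, n = 3). Of 10 mast cell genes, Kit and Gata2 (5.52 ± 1.32 TPM) were on, while the proteases Cpa3 and Mcpt4 and the receptor chain Ms4a2 were listed at 0 in all 3 cultures and Cma1 and Fcer1a were off. Cx3cr1, a chemokine receptor of monocytes, was the 1 leukocyte gene higher in B2 (34.4, 81.0 and 24.9 scaled reads).

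Of 14 neuronal genes 6 were on (42.9%, against 54.1% of all coding genes). The beta-tubulin gene Tubb3 (299 ± 37.2 TPM), the amyloid precursor relative Aplp1 (58.5 ± 6.22) and the neurofilament gene Nefl (40.0 ± 1.67, SD, n = 3) led. Rbfox3, Dcx and Stmn2 were off. The synaptic vesicle genes Snap25 (26.2, 123 and 29.0 scaled reads) and Syp (28.8, 78.5 and 35.4) were higher in B2. Of the glial and neural crest list, Gap43, a growth cone protein, had 52.7 ± 16.2 TPM and Sox10 lay between at 0.25 ± 0.20. Gfap was at 0 in B2 and at 13.0 and 17.7 scaled reads in B1 and B3. Skeletal muscle genes had 0 of 13 on, with Myod1, Pax7, Myf6 and Myh2 off. Beside Spp1, 4 skeletal genes were on, among them Sox9, of cartilage formation, at 24.5 ± 4.98 TPM and Runx2, of bone formation, at 9.40 ± 1.23. The bone matrix gene Ibsp was off. In the adipogenic list, Cebpb had 40.8 ± 6.65 TPM, Lpl 17.1 ± 1.09 and Pparg, the master regulator of fat cells, 2.02 ± 0.737, while Adipoq, Plin1, Lep and Cd36 were off. Fabp4, a fatty acid carrier, was higher in B2 (15.5, 50.1 and 17.8 scaled reads). Of pluripotency and stemness genes 5 of 15 were on: Myc (63.9 ± 14.0 TPM), Bmi1 (33.9 ± 4.52), Klf4 (20.2 ± 5.39), Abcg2, the transporter of side population cells (6.93 ± 1.62), and Nanog (1.41 ± 0.292), a gene with close copies. Pou5f1 lay between at 0.407 ± 0.158 and Zfp42, Esrrb, Tdgf1, Lin28a and Tert were off. In bulk RNA, fewer cells of a type and less RNA per cell cannot be told apart.

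**Figure D1:**
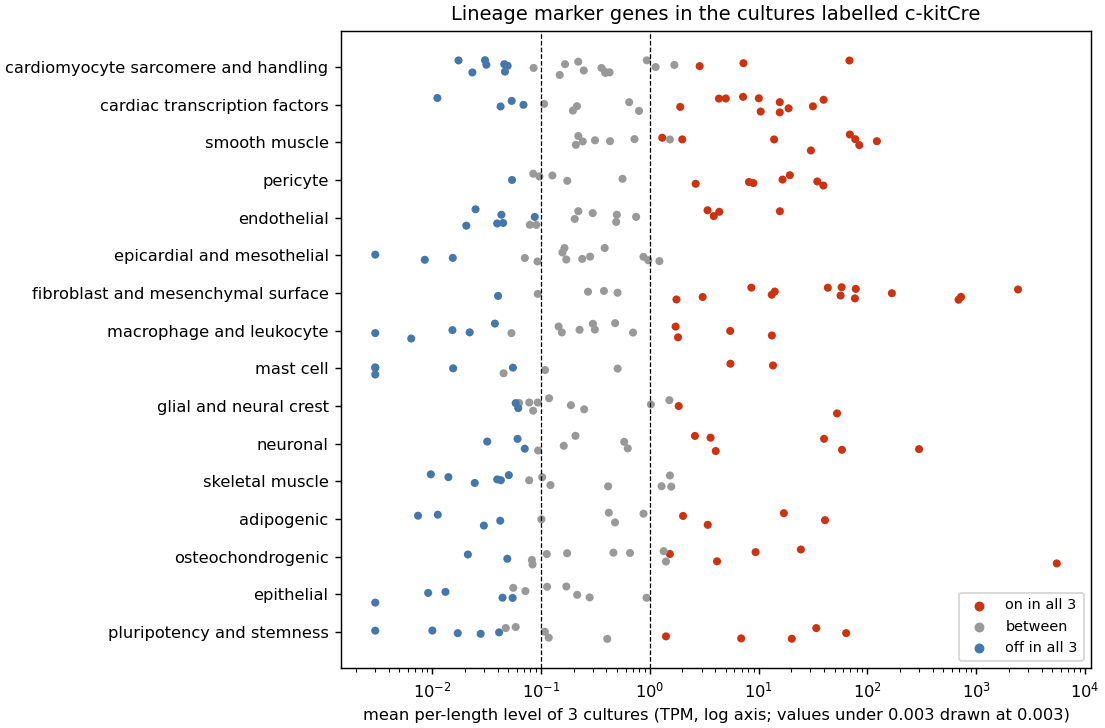
Mean per-length level (TPM, log axis) of every gene of 16 lineage lists in the 3 cultures labelled c-kitCre, 1 point per gene, red where on in all 3 cultures, blue where off in all 3 and grey between; dashed lines mark 0.1 and 1 TPM. The mesenchymal list has 14 of 19 genes on, the point furthest right is Spp1 in the osteochondrogenic list, and the epithelial, skeletal muscle and epicardial lists have 0 on.

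Matrix genes were on in 107 of 158 cases (67.7%) with 12 off (7.59%), against 54.1% and 19.8% of all coding genes. The leading structural genes were Fn1, fibronectin, at 888 ± 56.9 TPM, Nid1, the nidogen that links laminin to collagen IV, at 621 ± 138, Col1a1 and Col1a2, the chains of type I collagen, at 457 ± 162 and 448 ± 59.5, Col3a1 at 346 ± 12.0 and Col4a1, of basement membranes, at 245 ± 53.3 (SD, n = 3). Of 15 laminin and basement membrane genes 10 were on. Lamb1 (236 ± 17.3 TPM), Lamc1 (161 ± 12.3) and Lama4 (120.3 ± 14.4) were highest among the laminin chains, and Lama1 and Lama2 were off. Eln, which encodes elastin, was off at 0.00972 TPM, while 13 of the 17 genes of microfibrils and elastic fibres were on, among them Fbln2 (322 ± 27.0) and Fbn1 (115 ± 18.5).

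The enzymes that mature collagen were almost all on, 17 of 18. P4hb had 1696 ± 296 TPM, the collagen chaperone Serpinh1 1290.3 ± 119.7, the cross-linking enzyme Lox 572 ± 30.8 and the prolyl hydroxylase P4ha1 477 ± 101 (SD, n = 3). Of proteoglycans, the syndecan Sdc4 (457 ± 13.4 TPM), biglycan (Bgn, 351 ± 18.9), decorin (Dcn, 139.7 ± 36.1) and versican (Vcan, 110.0 ± 45.3) led, with Gpc3 off. Of matricellular genes, Sparc had 641 ± 44.4 TPM after Spp1, Thbs1 559.8 ± 53.9 and Cyr61, a target of YAP, 308 ± 49.4. The protease inhibitor gene Timp1 (413 ± 86.3 TPM) stood above the gelatinase gene Mmp2 (188 ± 31.8), while Mmp3 and Timp4 were off.

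In B2 matrix genes stood apart in both directions. Of 132 averaging 10 or more scaled reads, 9 (6.82%) were higher and 7 (5.30%) lower, against 3.84% and 7.35% of all genes. Higher in B2 than in both other cultures were Col11a1 (2805, 5646 and 2669 scaled reads), the cartilage collagen gene Col2a1 (21.5, 137 and 35.1), Lama5 (1293, 3053 and 1155), the periosteal protein gene Postn (148, 367 and 135), Nov (152, 355 and 153), Sparcl1 (37.6, 107 and 36.4), the gelatinase gene Mmp9 (58.2, 135 and 32.2) and the minor collagen genes Col25a1 (14.7, 81.0 and 29.4) and Col4a3 (8.69, 21.2 and 5.45). Lower were Wisp1, a Wnt-induced secreted protein (1023, 337 and 955), and the hyaluronan synthase gene Has1 (96.8, 36.9 and 83.3). So were 5 of the 23 listed non-fibrillar collagen genes averaging 10 or more scaled reads (against 7.35% of all genes). These 5 were Col17a1 (185, 53.2 and 165), Col4a4 (30.5, 3.85 and 34.2), Col14a1 (22, 1.92 and 16.6), Col9a3 and Col9a2. All but Col17a1 averaged 10 to 50 scaled reads, a range in which 15.2% of all genes were lower in B2. Col23a1, given below, was not in the list. The listed matrix genes apart in B2, except Col11a1 and Lama5, had means between 0.0794 (Col4a3) and 10.3 TPM (Wisp1). Col4a3 passed the minimum of 10 scaled reads only through B2, with a mean of 7.07 in B1 and B3. The abundant chains Col1a2, Col3a1, Col5a1, Col4a1 and Col6a1 did not stand apart in any culture.

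Receptor and ligand genes were on in 150 of 242 cases (62.0%) with 21 off (8.68%), against 54.1% and 19.8% of all coding genes. Of 207 averaging 10 or more scaled reads, 10 (4.83%) were higher and 15 (7.25%) lower in B2. Over all genes these shares were 3.84% and 7.35%. Of 46 receptor tyrosine kinase genes 29 were on and 10 off. Axl, the receptor of Gas6, led at 271 ± 72.3 TPM, followed by Ryk, a Wnt co-receptor, at 97.4 ± 6.57, the collagen receptor Ddr2 at 76.9 ± 13.2 and Pdgfra (SD, n = 3). Fgfr1 had 50.6 ± 8.95 TPM. Kit stood next to Flt1 and the HGF receptor gene Met (12.8 ± 2.80 TPM). Its ligand Kitl was on as well, at 22.7 ± 1.84 TPM. Off were the endothelial receptors Kdr, Tek and Tie1, the neurotrophic factor receptors Ntrk3 and Ret, and Epha3, Ephb1, Fgfr4, Alk and Musk.

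Receptors for the TGF-beta and BMP family were on in 10 of 14 cases, led by the co-receptor Tgfbr3 (102 ± 15 TPM) and Bmpr1a (67.7 ± 13.9), with 0 off and 0 apart in B2. Of 18 Wnt receptor genes 12 were on. In B2 Fzd7 (1691, 4732 and 2361 scaled reads) and Fzd5 (444, 956 and 405) were higher. Fzd6 (366, 176 and 395), Fzd9 (19.9, 2.63 and 31.3) and the R-spondin receptor Lgr5 (89.2, 38.7 and 104) were lower in B2. Members of this family thus stood apart both ways, 2 higher and 3 lower of 16 averaging 10 or more scaled reads. Over all genes 3.84% were higher and 7.35% lower. Of the Notch list, Notch2 had 32.6 ± 10.1 TPM, and the ligand gene Jag2 was higher in B2 (26.8, 123 and 31.1 scaled reads). Cytokine receptors were on in 20 of 24 cases, among them Il13ra1 (119 ± 4.82 TPM), Il6st, the shared chain of IL-6 receptors (37.2 ± 9.64), and both chains of the interferon alpha and of the interferon gamma receptor, while Il6ra was lower in B2 (298, 105 and 371 scaled reads).

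Of 40 genes of G protein-coupled receptors 19 were on (47.5%, against 54.1% of all coding genes). Calcrl, the receptor of adrenomedullin, led at 126 ± 6.28 TPM, with the thrombin receptor F2r at 59.6 ± 6.48 (SD, n = 3). Ednra, the endothelin A receptor, had 1239, 12359 and 3194 scaled reads, all 3 cultures at least 2-fold from each other. The scavenging chemokine receptor gene Cxcr7 (2795, 1253 and 2536), P2ry6 (178, 83.3 and 211) and Adora2a (15.3, 1.52 and 26.7) were lower in B2 and the oxytocin receptor gene Oxtr was higher (19.0, 83.1 and 30.1), while Cxcr4 lay between at 0.0827 ± 0.0978 TPM and both angiotensin receptor genes Agtr1a and Agtr1b were off. Integrin chains were on in 11 of 23 cases (47.8%). Beside Itgb1, Itgav (66.3 ± 4.98 TPM), Itga5 (66.0 ± 7.40) and Itga6 (43.3 ± 5.02) led, which pair into receptors for fibronectin and laminin.

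Of 41 genes for secreted growth factors and cytokines 28 were on. Vegfa had 315 ± 50.9 TPM, the BMP antagonist Grem1 255 ± 42.4, the vasodilator peptide gene Adm 232 ± 85.0, the chemokines Ccl2 and Cxcl12 187 ± 3.04 and 95.0 ± 27.7, and the EGF receptor ligand Ereg 97.0 ± 44.3 (SD, n = 3). In B2 the chemokines Ccl7 (509, 1259.6 and 434 scaled reads) and Cxcl1 (14.2, 80.2 and 15.7) were higher, and the growth factors Hgf (1139, 565 and 1224), Fgf1 (82.3, 15.8 and 87.9) and Fgf2 (16.3, 5.99 and 22.9) were lower. Of 30 nuclear receptors 20 were on, led by Thra (59.5 ± 6.86 TPM) and Rarg (58.7 ± 1.74). The mineralocorticoid receptor gene Nr3c2 (89.2, 18.3 and 93.9 scaled reads), Rarb (73.2, 23.1 and 57.5), Nr1h3 and Esr2 were lower in B2. The clock receptors Nr1d1 and Nr1d2 were higher in B2. This makes 4 (14.8%) lower and 2 (7.41%) higher of 27 averaging 10 or more scaled reads, against 7.35% and 3.84% of all genes.

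Metabolic genes were on in 192 of 208 cases (92.3%, against 54.1% of all coding genes), with 2 off, Cd36 and Ppara, which serve fatty acid uptake and oxidation. Glycolysis was on in 23 of 26 genes. Beside Pkm and Aldoa, Ldha had 1842 ± 198 TPM, Tpi1 1296 ± 140.2, Gapdh 999 ± 147 and the glucose transporter gene Slc2a1 442 ± 120.0 (SD, n = 3). Genes that report oxygen sensing were on in 37 of 39 cases at 21% O2: Ero1l had 2021 ± 274 TPM, Bnip3 864 ± 67.7, the prolyl hydroxylase Egln3 251 ± 112 and Hif1a 184 ± 24.9, while Epas1, which encodes HIF-2 alpha, lay between at 0.661 ± 0.180. All 21 genes of the citric acid cycle and all 30 of the respiratory chain were on, with Atp5b at 675 ± 26.9 TPM and Cox4i1 at 502 ± 11.6, and none of them stood apart in any culture.

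Fatty acid oxidation genes were on in 13 of 18 cases at lower levels, led by Acadvl (50.3 ± 4.75 TPM). Scd2, a fatty acid desaturase, had 387 ± 82.9 TPM. Atf4, the factor of the amino acid response, had 324 ± 13.4, with its targets Asns at 188 ± 44.1, Phgdh, of serine synthesis, at 193 ± 33.0 and Psat1 at 165 ± 34.1 (SD, n = 3). The inducible nitric oxide synthase gene Nos2 had 348 ± 94.4 TPM and the prostaglandin synthase gene Ptgs2 443 ± 70.2, whereas Nos1 and Nos3 lay between at 0.217 ± 0.0256 and 0.291 ± 0.0370.

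Of 205 metabolic genes averaging 10 or more scaled reads, 6 were higher in B2 (2.93%, against 3.84% of all genes) and 9 lower (4.39%, against 7.35%). Higher were Insig1, which holds the sterol sensor in the endoplasmic reticulum (986, 4391 and 774 scaled reads), the enolase Eno2 (764, 2177 and 946), Hmox1, the heme oxygenase (10981, 28519.6 and 8549.7), Ankrd37 (2265, 4938 and 1932), Atf3 (397, 829 and 340.1) and Ddit3, the stress factor CHOP (2225, 9299 and 1630.3). Lower were Acaca and Elovl6, of fatty acid synthesis and elongation (3631, 1667 and 3710.2 and 571, 240.2 and 682), Shmt1, of folate metabolism (581, 278 and 592), Egln3 (10881, 5398 and 10861), Cpt1b, Arg1, Slc7a3, Pgam2 and Aldoc. The last 5 of these had means of at most 1.78 TPM (Pgam2).

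Proliferation genes were on in 30 of 30 cases, led by Top2a (368 ± 30.8 TPM), Mki67 (300.0 ± 55.6) and Ccnb2 (225 ± 51.2), beside the inhibitors Cdkn1b (87.9 ± 8.88), Cdkn2b (87.3 ± 2.88) and Cdkn2a (67.7 ± 11.6; SD, n = 3). In B2 the ribonucleotide reductase gene Rrm2 was lower (2359.8, 1058 and 2239.5 scaled reads) and the replication licensing gene Cdt1 higher (1374, 3954 and 1936). The median B2 departure of the 30 genes was -0.29, a departure being the log2 of a culture minus the mean log2 of the other 2, on scaled reads + 1, against a median of 0.01 over all 17749 genes averaging 10 or more scaled reads. Immediate early genes were on in 19 of 20 cases, with Ier3 at 1174 ± 83.6 TPM and Fos at 67.5 ± 32.0. Of these, Fosb (2259, 326 and 2037) and Egr3 (107, 47.4 and 133) were lower in B2 and Zfp36, which destabilises inflammatory mRNAs, was higher (758, 1807 and 662). The unfolded protein response list was on in 16 of 16 genes, with Hsp90b1 at 978 ± 179.6 TPM and Hspa5 at 695 ± 198, and 0 of them stood apart. All 41 ribosomal protein genes were on and 0 stood apart, while their B2 departures lay above 0 in 41 of 41, with medians of 0.00, 0.37 and -0.38 in B1, B2 and B3.

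B2 was the culture that lay away from the others. Over 13424 genes averaging 50 or more scaled reads, Pearson's r of log2 values was 0.988 between B1 and B3, 0.945 between B1 and B2 and 0.949 between B2 and B3, as a description across genes, which are not independent. Of these genes, 94.4% lay within 1.5-fold of each other in B1 and B3, against 72.1% in B1 and B2 and 69.5% in B2 and B3. Against the 682 genes higher and 1304 lower in B2, B1 had 27 higher (0.152%) and 223 lower (1.26%), and B3 had 60 higher (0.338%) and 63 lower (0.355%).

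Genes apart in B2 in either direction were most often weak ones. Among 4325 genes with a mean of 10 to 50 scaled reads, 351 were higher and 656 lower in B2. Among 5137 genes at 1000 to 10000 the counts were 88 and 71, and among 400 genes above 10000 they were 8 and 1. Protein-coding genes higher in B2 averaging 50 or more scaled reads had a median mean level of 473 scaled reads, those lower 197 and the remainder 894. Their median exon lengths were 3757.5, 4610 and 4668.5 bases and their median GC contents 50.5%, 49.5% and 49.4%. The split between higher and lower calls moves with scaling: with the summed raw values in place of the authors' factors, B2 had 424 genes higher and 1720 lower, and the median B2 departure of all genes moved from 0.01 to -0.19.

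**Figure D2:**
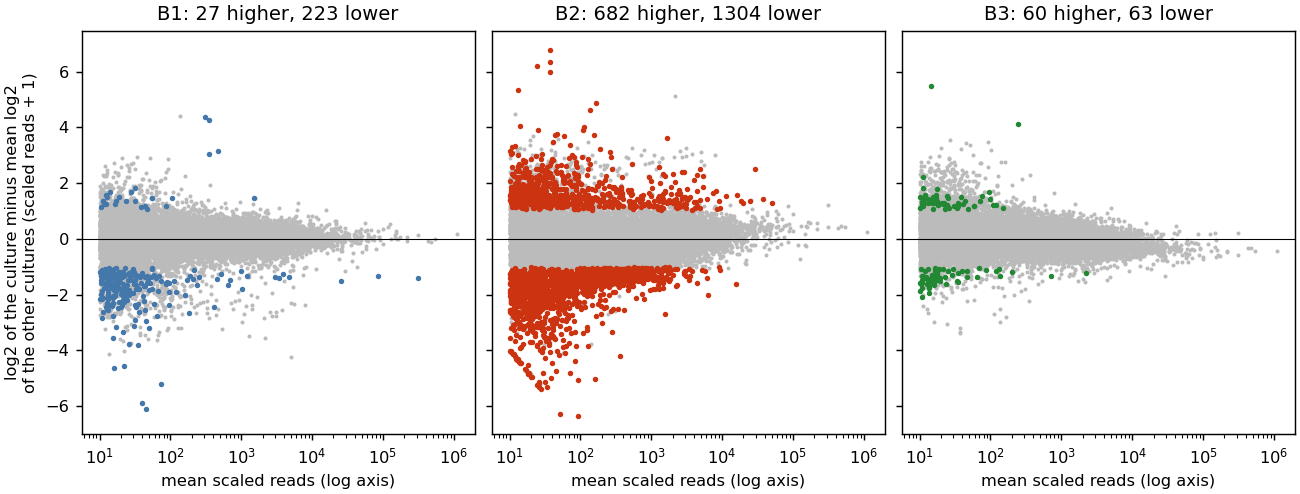
Departure of each culture (log2 of the culture minus the mean log2 of the other 2 cultures, scaled reads + 1) against the mean level (scaled reads, log axis), 1 point per gene averaging 10 or more scaled reads; coloured points stood apart in that culture. B2 has 682 higher and 1304 lower, against 27 and 223 in B1 and 60 and 63 in B3.

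Among named genes averaging 50 or more scaled reads, the largest departures upward in B2 were Rhov, an atypical small GTPase (16.3, 284 and 20.4 scaled reads, a departure of 3.89), Slc18a1, a vesicular monoamine transporter (32.1, 403 and 27.1, 3.73), and Casr, the calcium-sensing receptor (50.1, 624 and 99.4, 3.13). Of these 15 genes, 7 had means below 4 TPM that came mainly from B2: H2-K2, Rhov, Slc18a1, Casr, the axonemal dynein gene Dnahc6 (15.9, 185 and 30.6), the olfactory receptor gene Olfr570 (17.6, 193 and 33.5) and Cadps, of vesicle release (32.5, 302 and 51.7). The others had more reads in B2. Nptx1, a neuronal pentraxin, had 497, 2922 and 480.3, Sprr1a, a protein of the cornified envelope and of injured nerve and heart, 109, 625 and 109, and Pggt1b, a prenyltransferase subunit, 786, 5775 and 1549 scaled reads. H2-K2, a class I entry annotated as a transcribed pseudogene, has close relatives. It had 23.6, 115 and 18.9 scaled reads, which are uncertain for that reason. Ifit3, Per1, Nr1d1 and Insig1 were also among the 15.

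**Figure D3:**
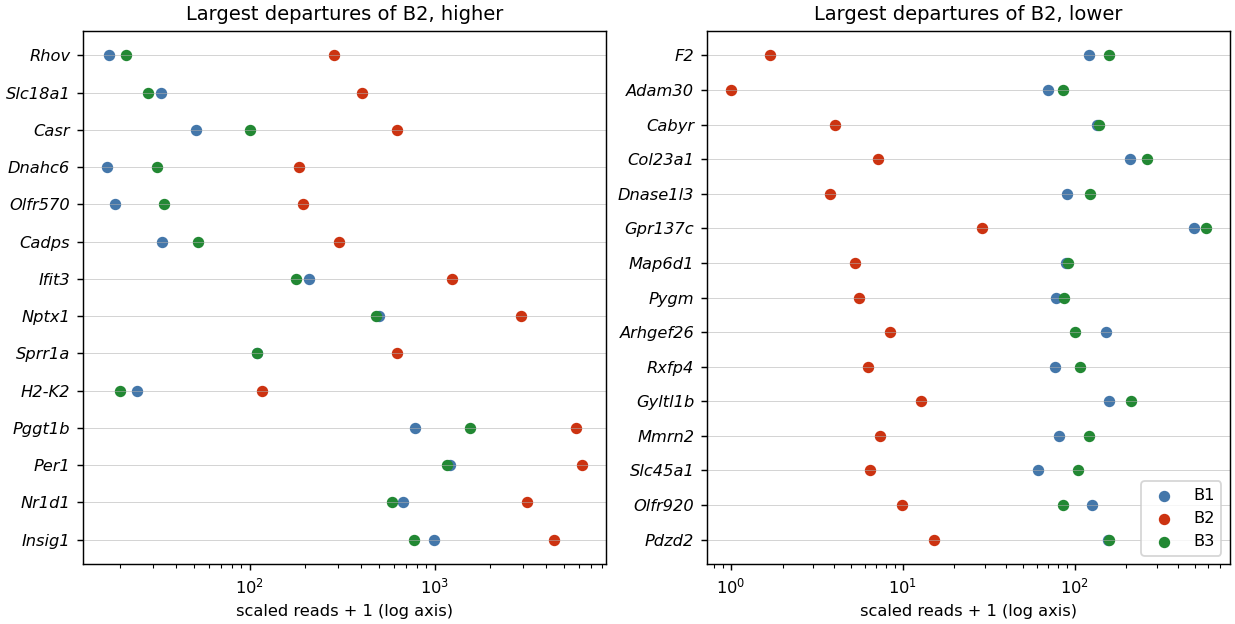
Scaled reads + 1 (log axis) in B1, B2 and B3 for the 15 named genes with the largest departures upward (left, 1 not drawn) and downward (right) in B2 among genes averaging 50 or more scaled reads. The choice of genes places B1 and B3 within 2-fold of each other and B2 away from both in each row; overlapping points hide each other where B1 and B3 are equal, as in Sprr1a.

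Clock genes made up 2 of the 15. Of 21 clock genes averaging 10 or more scaled reads, 4 were higher in B2 and 1 lower, against 3.84% and 7.35% of all genes, in a list drawn up after values were seen. The repressor gene Per1 (chromosome 11, 69095217 to 69109960) had 1216, 6239 and 1169 scaled reads in B1, B2 and B3, Nr1d1 (chromosome 11, 98767932 to 98775333), which encodes REV-ERB alpha, 670.0, 3165 and 589, its relative Nr1d2 1556, 3607 and 1369.6, and the output factor gene Dbp 201, 681 and 222. In each of these 4 genes B1 and B3 lay within 1.5-fold of each other and B2 was over 2-fold above. Per2 went the other way, with 315, 151 and 397 scaled reads. Arntl, the activator of the loop, had 1756, 726 and 1316, lowest in B2 but short of 2-fold below B3, and Tef, a relative of Dbp, had 1346, 2752 and 1384, highest in B2 and short of 2-fold above B3. Clock was at 2878, 2506 and 2569.8 and the casein kinase gene Csnk1d at 4612, 5250.2 and 4292, with little spread.

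Interferon response genes made up another group. Of 22 averaging 10 or more scaled reads, 6 were higher in B2 (27.3%, against 3.84% of all genes) and 0 lower (against 7.35%). Ifit3 (chromosome 19, 34583531 to 34588731), an inhibitor of viral RNA translation, had 209, 1241 and 177 scaled reads, a departure of 2.68, and Ifit1, of the same family, had 1501, 4163 and 1218. Irf1, a transcription factor of the response, had 1551, 4638 and 1441, the chemokine gene Cxcl10 2016, 4977 and 1495, the antiviral gene Rsad2 229, 692 and 187 and the GTPase gene Mx2 24, 119 and 29.4. Other members of the same response did not follow: the RNA sensor gene Ifih1 had 438, 244 and 436 scaled reads, lowest in B2, and Ifit2 (1419, 1502 and 1383) and Ifitm3 (4709, 4635 and 4916) were nearly level. The median departure of the 22 genes in B2 was 0.07, and it fell below 0 with scaling to the summed raw values.

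**Figure D4:**
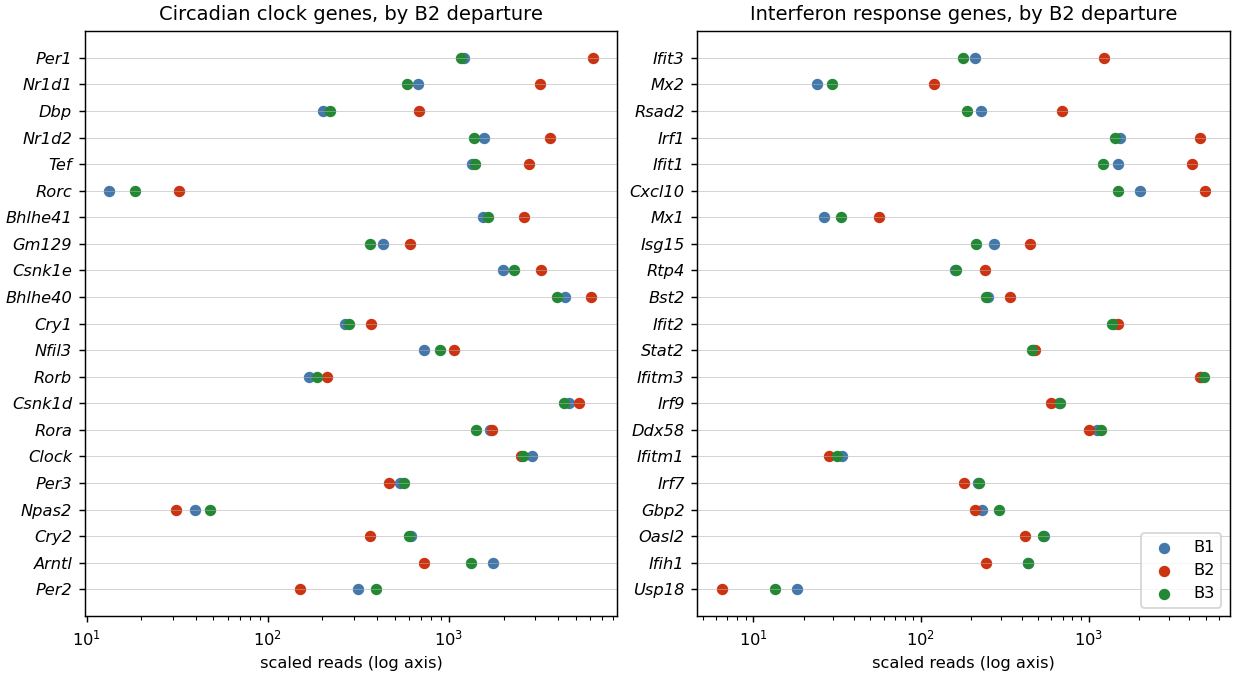
Scaled reads (log axis) in B1, B2 and B3 of the circadian clock genes (left) and the interferon response genes (right, 1 not drawn) averaging 10 or more scaled reads, ordered by B2 departure. B2 lies far right in Per1, Nr1d1, Dbp and Nr1d2 and in the upper 6 interferon genes, and left of B1 and B3 in Arntl and Per2.

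The promoters of these genes are shown because members of both groups stood apart together. RefSeq promoters (build GRCm38.p6, 250 bases before to 50 after the start site) were searched for the interferon-stimulated response element written as TTTC, any 2 bases and TTTC again, on both strands, and for the E-box CACGTG, the CLOCK and ARNTL site, which reads the same on both strands. The response element was found in 3.44% of 32851 promoters, and in 4 of the 5 interferon genes higher in B2 that have a promoter in the table (Ifit1, Ifit3, Rsad2 and Cxcl10, not Irf1). It was also found in 7 of 12 interferon genes that did not stand apart, so it was not limited to those higher in B2. The E-box was found in 7.15% of all promoters, in 1 of the 4 clock genes higher in B2 (Per1, in 1 of its 2 promoters in the table) and in 3 of 12 that did not stand apart. A match of letters is not a bound site. The 5 promoters with a match in genes higher in B2 follow, 5′ to 3′ on the strand of the gene, with the matching letters in capitals.
Ifit3, chr19:34583279-34583578, plus strand: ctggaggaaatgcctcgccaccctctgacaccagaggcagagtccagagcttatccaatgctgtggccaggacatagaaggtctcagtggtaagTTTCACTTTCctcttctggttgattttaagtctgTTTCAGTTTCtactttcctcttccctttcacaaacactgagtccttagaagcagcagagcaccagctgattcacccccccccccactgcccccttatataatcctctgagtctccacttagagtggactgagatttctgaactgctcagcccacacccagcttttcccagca
Ifit1, chr19:34640639-34640938, plus strand: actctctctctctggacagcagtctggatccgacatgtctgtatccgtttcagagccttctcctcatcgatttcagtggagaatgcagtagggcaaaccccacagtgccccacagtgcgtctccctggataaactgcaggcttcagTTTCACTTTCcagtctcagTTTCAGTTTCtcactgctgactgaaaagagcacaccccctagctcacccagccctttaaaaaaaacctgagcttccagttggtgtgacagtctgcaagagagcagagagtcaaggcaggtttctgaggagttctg
Rsad2, chr12:26456403-26456702, minus strand: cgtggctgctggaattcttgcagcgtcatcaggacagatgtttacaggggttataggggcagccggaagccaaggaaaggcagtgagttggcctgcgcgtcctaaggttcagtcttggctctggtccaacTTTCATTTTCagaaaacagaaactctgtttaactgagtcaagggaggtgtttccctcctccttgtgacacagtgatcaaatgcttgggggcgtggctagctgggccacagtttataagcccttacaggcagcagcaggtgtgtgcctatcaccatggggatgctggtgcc
Cxcl10, chr5:92348840-92349139, minus strand: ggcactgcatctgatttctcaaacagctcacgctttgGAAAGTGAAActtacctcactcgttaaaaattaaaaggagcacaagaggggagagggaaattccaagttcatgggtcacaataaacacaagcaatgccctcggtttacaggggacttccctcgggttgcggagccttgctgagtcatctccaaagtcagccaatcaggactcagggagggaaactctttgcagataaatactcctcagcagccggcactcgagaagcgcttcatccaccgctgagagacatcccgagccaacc
Per1, chr11:69098699-69098998, plus strand: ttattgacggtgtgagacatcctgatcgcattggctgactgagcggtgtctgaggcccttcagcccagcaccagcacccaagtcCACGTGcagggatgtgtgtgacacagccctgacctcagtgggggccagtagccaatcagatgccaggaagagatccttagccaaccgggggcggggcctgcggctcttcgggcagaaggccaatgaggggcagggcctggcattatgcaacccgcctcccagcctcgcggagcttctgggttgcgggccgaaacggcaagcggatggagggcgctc
In Ifit3 and Ifit1 the element occurs 2 times in the same orientation, and in Cxcl10 it lies on the opposite strand.

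The coding genes apart in B2 were also ranked by mean scaled reads, not by TPM, after values were seen. Those higher in B2 with the highest means included Ftl1 (36657, 82810.0 and 31035 scaled reads), the metallothionein gene Mt1 (26119, 63992 and 21486) and the centrosome gene Pcm1 (15542, 41021 and 16368). Also among them were Txnip, an inhibitor of thioredoxin and of glucose uptake (14744, 31864 and 11682), the autophagy receptor gene Sqstm1 (14345, 31079 and 10008) and Hmox1 (10981, 28519.6 and 8549.7). Of 9 metal and iron handling genes averaging 10 or more scaled reads, 4 were higher in B2, against 3.84% of all genes (Ftl1, Mt1, Hmox1 and the zinc exporter Slc30a1 with 51.9, 139.7 and 60.1), again in a list drawn up with values known. Mt2 (8738, 14110.3 and 7911) and Fth1 (13251, 17391 and 12574) did not stand apart. Of 21 cell cycle inhibitors and p53 targets 3 were higher (14.3%) and 0 lower in B2, against 3.84% and 7.35% of all genes: Gadd45a, of the DNA damage response, had 479, 1957 and 362, and the pro-apoptotic genes Bbc3 and Pmaip1 had 192, 733 and 209 and 78.3, 206 and 49.1. The p53 target Cdkn1a (1762, 1093 and 1208) and Mdm2 (2496, 4211 and 2085) did not stand apart. Mcl1, which protects from apoptosis, had 6521, 13136 and 5909.7 scaled reads. The heat shock genes Hspa8 (31536, 46165 and 29988) and Hsp90aa1 (23399.7, 19168 and 18294) did not stand apart. Of 24 replication-dependent histone genes averaging 10 or more scaled reads, Hist1h1c (7363, 14916 and 4685) and Hist1h4i (749, 1719 and 467) were higher in B2 (8.33%, against 3.84% of all genes). Histone genes are near-identical copies of each other, so these values are uncertain.

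The largest departures downward in B2 were genes present in B1 and B3 and at most at 28.1 scaled reads in B2. F2 (chromosome 2, 91625320 to 91636414), which encodes prothrombin, had 119.6, 0.701 and 157 scaled reads, at least 30.4-fold lower in B2 against a floor of 3 raw reads in B2 (4.55 scaled reads). Adam30 had 68.9, 0 and 84.6, at least 16.9-fold lower by the same floor. Cabyr, a calcium-binding protein of the sperm tail, had 133, 3.03 and 138, the transmembrane collagen gene Col23a1 209, 6.22 and 261 and the DNase gene Dnase1l3 89.4, 2.78 and 122 scaled reads. Gpr137c had the most scaled reads of these 15 in B1 and B3, with 492, 28.1 and 578, 19.1-fold lower in B2. The remaining 9 were Map6d1, the muscle glycogen phosphorylase gene Pygm (76.8, 4.55 and 86.3), Arhgef26, the relaxin family receptor gene Rxfp4, Gyltl1b, the endothelial matrix gene Mmrn2 (80.1, 6.37 and 119), Slc45a1, Olfr920 and Pdzd2 (156, 14.2 and 158). Their departures ran from -4.10 to -3.38, and all 15 had means below 4 TPM.

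Stronger genes were lower in B2 by smaller amounts. The coding genes lower in B2 were again ranked by mean scaled reads, after values were seen. Those with the highest means included Npr3, the clearance receptor of natriuretic peptides (22666, 6669 and 18262 scaled reads), and the amino acid transporter gene Slc38a2 (12075, 5268 and 10940.5). Egln3, the matrix protein gene Spon2 (9454, 2072 and 7326), and Aspm, of the mitotic spindle (8961, 2905 and 6701), came next. Topbp1, of the replication checkpoint (6432, 2889 and 6094), followed, with the chromatin protein gene Hmga2 (5239, 1874 and 5972) and the alarmin gene Il33 (5019, 1536 and 3569.8). In these genes B2 lay between 2-fold and 5-fold below both others.

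Over all 53 lists, 1035 genes were listed and 866 averaged 10 or more scaled reads. Of these 53 (6.12%) were higher and 44 (5.08%) lower in B2, against 3.84% and 7.35% of all genes. The lists were not drawn at random, and 3 of them (clock, heat shock, and metal and iron handling) were drawn up after the values were seen. Those 3 are part of these shares, with 9 of 42 genes higher in B2 (21.4%) and 1 lower. The shares therefore describe the lists only. Among lists with at least 5 genes above the minimum, medians of the B2 departure ran highest in metal and iron handling (0.83), replication-dependent histones (0.64), fibrillar collagens (0.48) and cell cycle inhibitors and p53 targets (0.48). They ran lowest in glial and neural crest genes (-0.53), the amino acid response (-0.36) and proliferation (-0.29). In fibrillar collagens the median departures of B1 and B3 were -0.37 and -0.26. In replication-dependent histones they were 0.13 and -0.83, so that B3 lay further from the others than B2 did. In the glial and neural crest, amino acid response and proliferation lists the B1 medians were 0.51, 0.36 and 0.27, close in size to those of B2. In the authors' scaling 36 of 53 list medians of B2 lay above 0, and with the summed raw values 19 did, so a list median within about 0.2 of 0 has no direction here.

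**Figure D5:**
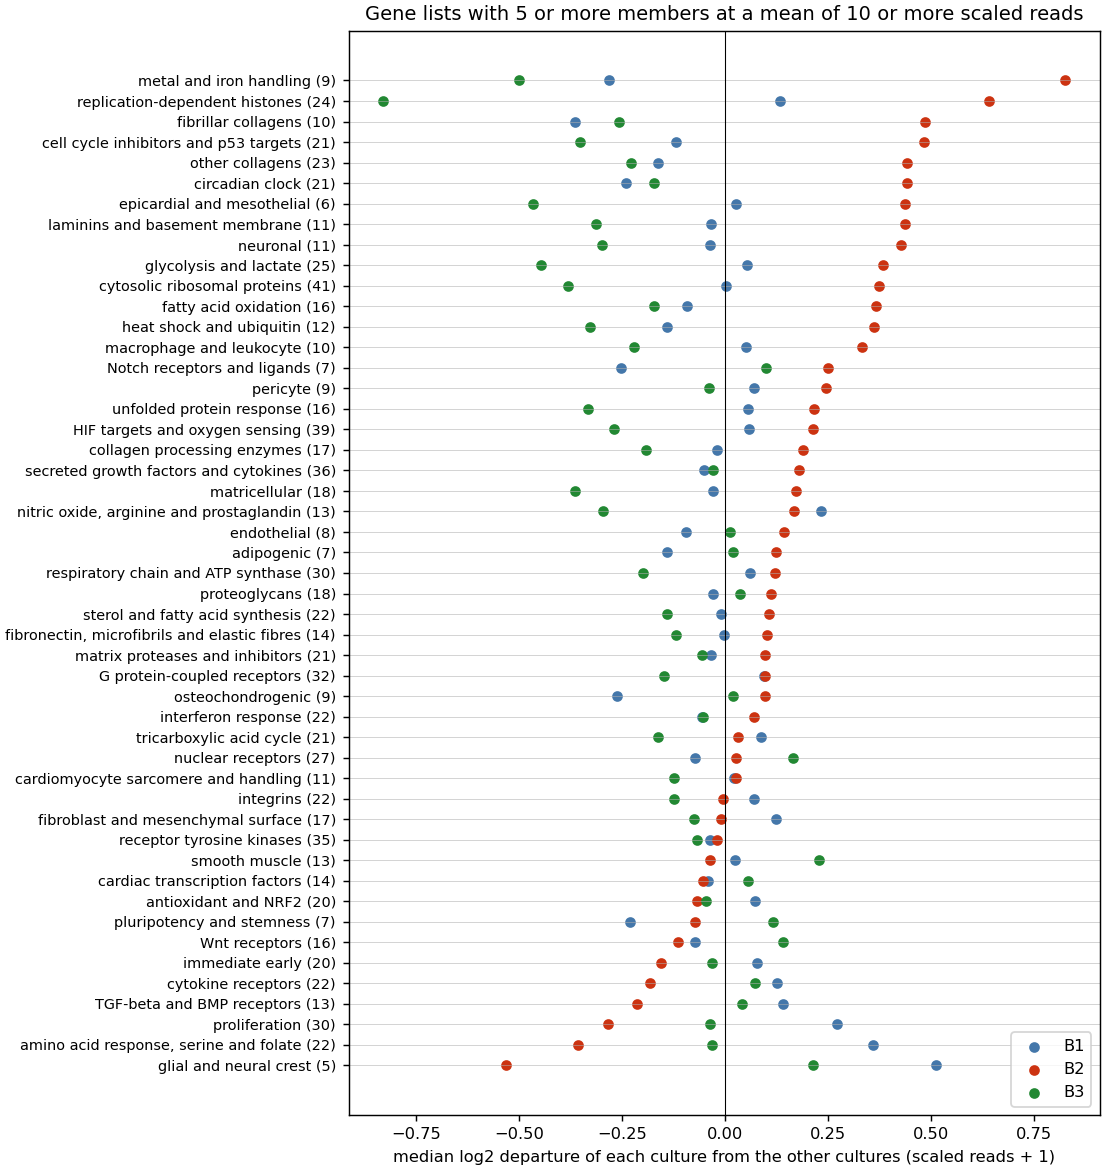
Median departure (log2, scaled reads + 1) of B1, B2 and B3 from the other cultures for each list with at least 5 genes averaging 10 or more scaled reads, the number of such genes in brackets. Lists are ordered by B2, from metal and iron handling at 0.83 to glial and neural crest at -0.53. The metal, clock and heat shock lists were drawn up after the values were seen.

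B1 and B3 departed in fewer genes. In B1, Rnf183, a ubiquitin ligase of the kidney, was higher (181, 52.4 and 80.7 scaled reads, a departure of 1.46), beside the pseudogene Rps13-ps1 (97.2, 35.3 and 34.6). Lower in B1 were the axonemal dynein gene Dnahc11 (12.2, 69.0 and 114, -2.76), Fam36a (38.6, 297 and 206), the lipocalin gene Apod (24.2, 156 and 110.3) and Cct8l1 (49.7, 282 and 149). An entry named Map3k4, after a kinase of the stress pathway, was lower in B1 too (105, 530.1 and 618). The ID of this entry had no match in the annotation, so it has no TPM and may not stand for the kinase gene. In B3 the zinc finger gene Casz1 (42.5, 50.9 and 135, 1.52), Pqlc2, Parvg, Atoh8 and the RNA Nron were higher. Lower in B3 were Lims2 (63.4, 101 and 30.3), the small heat shock gene Cryab (2294, 3174 and 1140.2), a chaperone of muscle, the histone genes Hist1h2ag and Hist1h2ah, and Snora44. Cryab, at 102 ± 35.0 TPM (SD, n = 3), was the most abundant of these 17 entries, leaving aside Map3k4, which has no TPM.

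Coding genes averaging 50 or more scaled reads stood apart in B2, both higher and lower, on each of chromosomes 1 to 19 and X. For example, 27 were higher and 52 lower of 860 on chromosome 7, and 4 and 25 of 468 on chromosome 13. The medians that follow are over all such genes, not those apart. Medians of the B2 departure over coding genes averaging 50 or more scaled reads lay between -0.08 and 0.06 on chromosomes 1 to 19 and X. Across 11745 of these genes, Spearman's rank correlation of the B2 departure was 0.06 with GC content, -0.08 with exon length and 0.21 with the mean level. For B3 the correlation with the mean level was -0.33, opposite in sign to that of B2. Of 5 sex-linked genes listed 0 were on: Xist, the RNA of the inactive X, had 0.192 ± 0.0635 TPM and the Y-linked gene Ddx3y was off.

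Many genes varied little. Of coding genes averaging 1000 or more scaled reads, Dnajb14, a membrane co-chaperone (3148, 3144 and 3168), Actr2, of the actin-nucleating complex (3204, 3229.9 and 3226), and Slirp, a mitochondrial RNA-binding protein (1239, 1240.5 and 1250.4), had the smallest ranges between cultures. Kit itself had a B2 departure of 0.06 and departures of 0.05 and -0.11 in B1 and B3.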

How the data were processed

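RNA of integrity number 8 or above (1 µg per sample, extracted with TRIzol) was depleted of ribosomal RNA and sequenced as 100 bp paired reads, per the labels' protocols. DESeq (no version) and mm10 are named in the submitters' processing notes. Aligner, annotation and strand use: not given in the sources used here. The deposited raw values, 34174 genes, are not whole numbers and were treated as a signal, never as counts. The normalized values, deposited in log2, match log2(raw value × factor of the culture), raised to a floor, minus a constant per gene. The factors were worked out from 8369 genes with raw values over 200 in all 6 cultures (largest deviation 2.85e-06), with their geometric mean set to 1. The wild-type columns serve only this unit and the check of Kit.

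Scaled reads are raw values times the factor. TPM divides raw values by the union exon length of GENCODE M21 (mm10; 32874 IDs matched, 1300 did not and have no length) and sums to 1000000 per culture. Departures use a pseudocount of 1. The values merge 2 libraries per culture, so no counting interval is given. The tools were numpy 2.4.6, pandas 2.3.3, matplotlib 3.10.9 and scipy 1.17.1 under Python 3.11.15. The code for the calls was run on simulated counts without spread between cultures, unlike these data. That run checks the code only and gives no rate of false calls here.

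The text names Kit, the 20 coding genes with the highest mean TPM, the 15 largest departures of B2 each way and the 5 of B1 and B3 among genes averaging 50 or more scaled reads without predicted or clone names, and, in each list, leading members, members apart in B2 and defining members that were off. The 50 gene lists and this rule were written with earlier results of these data known. The lists of clock, heat shock and metal genes, and the ranking of genes apart in B2 by mean scaled reads, were added after the values were seen. The second deposited table, a clone analysis, was not used here. Results for a few genes are not reported here.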

Additional observations from a re-analysis of the deposited data

How the results depend on the processing

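No paired analysis was possible because no result comes from a test. Counts of genes apart in B1 (27 higher, 223 lower), B2 (682, 1304) and B3 (60, 63) depend on the fold and the minimum. They were 111, 361, 1445, 2472, 239 and 273 at 1.5-fold, 7, 122, 306, 576, 7 and 5 at 3-fold, 534, 994, 2023, 2371, 1026 and 459 without a minimum, and 9, 45, 331, 648, 10 and 9 at a mean of at least 50. Scaling to the summed raw values gave 424 higher in B2 (19.8% of its calls, against 34.3%), 114 higher in B3 and 35 lower in B3, and 420 of the 424 were among the 682. A pseudocount of 5 gave 32 and 18 in B3. Against a single other culture, B2 had 1329 to 1530 genes higher and 1637 to 1767 lower. Coding genes off numbered 2685 with TPM over protein-coding genes without Gm20594, an alternative chosen after seeing the data, and 11081 were on, 10001 to 11984 under all alternatives. For 122 single genes apart in B2, 0 B2 departures changed sign under 6 other settings (577 of 732 values moved by less than the spread of B1 and B3). These genes were chosen for lying at least 2-fold away, which leaves little room for a change of sign. Genes with departures near 0 are not covered by this. Of 53 list medians, 17 changed sign with the summed raw values. B2 has the lowest summed raw value, so absence there is the least firm of the 3 cultures.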
